A study of Mus musculus with 2 samples.

Results

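Kupffer cells are the macrophages that live in the sinusoids of the liver, and 40 genes that they and other myeloid cells express were followed here in mouse liver after a diosgenin diet. The genes were taken by symbol from a list chosen with earlier results of these data known. Every probe set annotated with exactly 1 symbol from that list was used. All 40 genes were found, read by 68 probe sets, among 18194 genes with such a probe set on the array. The list holds 8 resident Kupffer cell genes, 3 C1q genes, 24 pan-macrophage, receptor, lysosome and leukocyte genes and 5 genes of monocytes and other recruited myeloid cells.

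The diosgenin group was ICR mice, an outbred stock, fed the basal diet CRF-1 with 500 ppm diosgenin, a steroidal sapogenin found in plants, over 4 weeks starting at 9 weeks of age. The control group was ICR mice of the same age on CRF-1 alone, and both groups were 13 weeks old at collection. Each diet had 1 Affymetrix array, and each array carried whole-liver RNA pooled from 3 mice. The spread between mice therefore cannot be had, no difference below has a test, and higher or lower describes the pool on the diosgenin array against the pool on the control array.

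Macrophages of the liver take up bacteria, dying cells, old red cells and complement-coated particles from the portal blood. They depend on signals through the CSF1 receptor and on the transcription factor PU.1, encoded by Spi1. Resident Kupffer cells are long-lived and carry receptors such as CLEC4F, TIM-4 and CRIg, whereas blood monocytes that enter the liver carry CCR2 and CD11b. In whole-liver RNA, fewer cells of a type and less RNA per cell cannot be told apart.

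Upstream sequences are shown for 6 members, picked after their values were seen: Marco and Mpeg1, which were among the highest ratios, the C1q pair C1qb and C1qc, which had nearly equal ratios, and Mrc1 and Cd163, which had the lowest ratios. Each window runs from 250 bases before to 50 bases after the annotated start of the gene, read 5′ to 3′ from RefSeq on GRCm38.p6. Capitals mark GAGGAAG or its reverse complement CTTCCTC, a short sequence that PU.1 can bind.
Marco promoter, chr1:120504975-120505274, minus strand: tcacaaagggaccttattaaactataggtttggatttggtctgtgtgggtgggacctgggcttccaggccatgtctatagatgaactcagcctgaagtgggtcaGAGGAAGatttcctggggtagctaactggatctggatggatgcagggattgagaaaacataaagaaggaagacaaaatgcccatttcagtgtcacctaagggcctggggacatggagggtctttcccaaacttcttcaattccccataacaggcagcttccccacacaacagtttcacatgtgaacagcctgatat
Mpeg1 promoter, chr19:12460520-12460819, plus strand: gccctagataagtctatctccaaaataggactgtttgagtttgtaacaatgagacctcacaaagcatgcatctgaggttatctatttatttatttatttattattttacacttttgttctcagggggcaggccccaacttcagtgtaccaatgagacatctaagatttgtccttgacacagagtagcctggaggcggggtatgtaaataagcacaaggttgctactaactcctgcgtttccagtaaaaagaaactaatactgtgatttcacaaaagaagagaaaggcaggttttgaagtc
C1qb promoter, chr4:136886151-136886450, minus strand: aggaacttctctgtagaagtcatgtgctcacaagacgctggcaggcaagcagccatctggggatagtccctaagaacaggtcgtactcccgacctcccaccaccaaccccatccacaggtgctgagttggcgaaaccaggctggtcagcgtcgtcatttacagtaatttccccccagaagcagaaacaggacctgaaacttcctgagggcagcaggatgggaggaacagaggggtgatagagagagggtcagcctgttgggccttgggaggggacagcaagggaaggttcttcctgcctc
C1qc promoter, chr4:136892865-136893164, minus strand: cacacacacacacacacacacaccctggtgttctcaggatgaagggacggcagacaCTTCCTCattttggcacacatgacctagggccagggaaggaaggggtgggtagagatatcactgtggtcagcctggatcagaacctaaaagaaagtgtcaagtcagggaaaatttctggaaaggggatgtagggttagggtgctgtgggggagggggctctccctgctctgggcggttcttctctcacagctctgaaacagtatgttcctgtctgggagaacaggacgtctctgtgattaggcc
Mrc1 promoter, chr2:14229164-14229463, plus strand: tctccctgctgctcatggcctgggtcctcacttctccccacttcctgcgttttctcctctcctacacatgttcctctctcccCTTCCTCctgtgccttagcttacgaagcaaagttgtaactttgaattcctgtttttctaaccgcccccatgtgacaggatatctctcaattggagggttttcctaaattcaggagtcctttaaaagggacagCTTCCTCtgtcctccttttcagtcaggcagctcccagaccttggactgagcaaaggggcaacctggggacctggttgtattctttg
Cd163 promoter, chr6:124304401-124304700, plus strand: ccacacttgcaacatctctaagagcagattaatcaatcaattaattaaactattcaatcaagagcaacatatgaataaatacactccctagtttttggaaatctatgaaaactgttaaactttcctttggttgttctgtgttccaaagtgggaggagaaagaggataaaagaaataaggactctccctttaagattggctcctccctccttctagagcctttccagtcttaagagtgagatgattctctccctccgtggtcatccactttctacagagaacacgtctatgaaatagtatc
The motif occurred 1 time in the Marco and C1qc windows and 2 times in the Mrc1 window, and was not found in those of Mpeg1, C1qb and Cd163. Both the highest and the lowest ratios thus include a window with the motif and a window without it. Of the members, 31 had a window in the table and 11 of these, or 35.5%, held the motif on either strand, against 15.4% of all 27025 genes with a window. The C1qb and C1qc windows start 6714 bases apart on the same strand of chromosome 4. A match describes letters in the window and is no evidence that the factor binds there.

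Array signals are on a linear scale, as the authors scaled them. Low signals were raised to a floor of 10.7, which 40% of signals do not reach, and the diosgenin signal was then divided by the control signal and put on the log2 scale. A gene was represented by its brightest probe set and counted where the mean of both signals reached 28.4, the 60th percentile. Of all genes 9732 passed this filter, and 32 of the 40 members did. Marco, with a mean signal of 29.2, was the member nearest above the filter and passed only through the diosgenin array. Spi1 and Tlr4 lay just below it at 26.3 and 24.9. The other 6 members below the filter were Fcgr1, Ccr2, Cx3cr1, Itgam, Itgax and Cd83. As a scale of measurement spread within an array, probe sets that read 1 gene differed in log2 ratio with a standard deviation of 0.27, taken over 4076 genes, which holds no spread between mice.

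**Figure D1:**
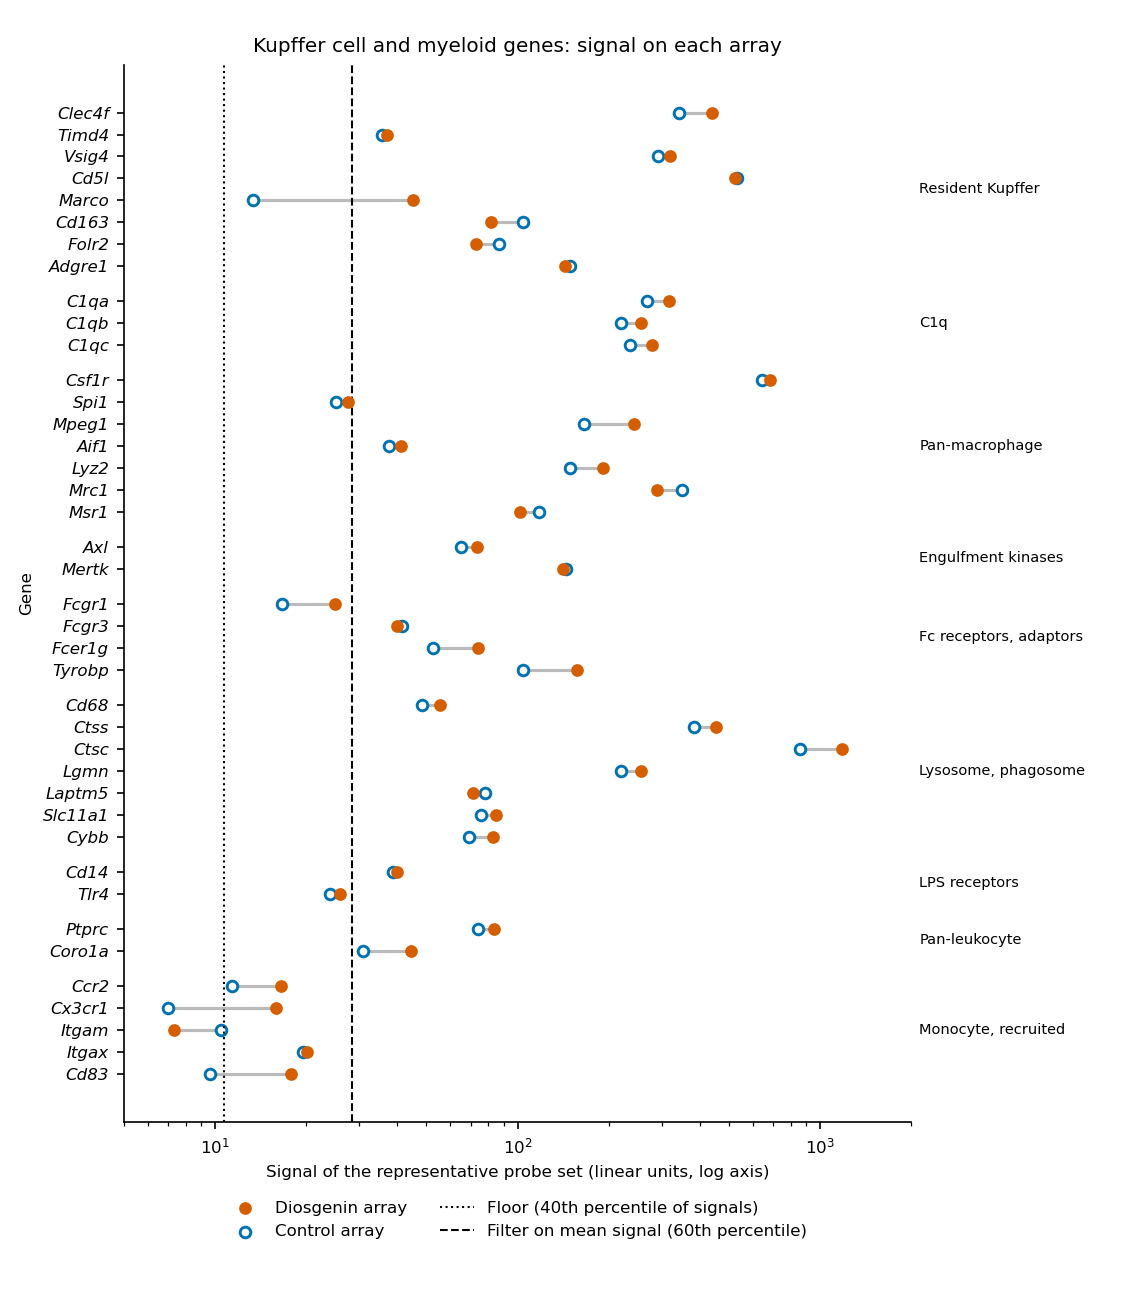
Signal of the representative probe set (linear units, log axis) for each of the 40 genes, by role, on the diosgenin array (filled) and the control array (open), with the floor at 10.7 and the filter at 28.4 as vertical lines. Most filled points lie a short way right of the open ones, Marco shows the widest gap among genes above the filter, and all 5 monocyte genes lie left of the filter on both arrays.

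Most of the myeloid genes were slightly higher on the diosgenin array. Among the 32 members above the filter, 23 or 71.9% were higher, against 49.0% of all genes, and 9 or 28.1% were lower, against 51.0% of all genes. Their median log2 ratio was 0.18, against −0.0053 for all genes. The 22 members with ratios under 0.27 in size lay within the standard deviation between probe sets, 8 lay above it and 2, Cd163 and Mrc1, below it. That value pools all signal levels, and ratios spread more among dim genes. With all genes split into 4 bins of equal size by signal, their standard deviation was 0.44 in the dimmest bin and 0.23 in the brightest. Of the 8, Marco, Fcer1g and Coro1a were in the dimmest bin. Genes of the same cells share a source, so the 32 ratios are not independent of each other. Because the list was chosen with earlier results of these data known, these shares describe it and are no test.

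Large differences were few. Past 1.5-fold upward lay 2 of 32 members, Marco and Tyrobp, where 2.84% of all genes were that much higher. No member was at least 1.5-fold lower, where 3.61% of all genes were. At 2-fold, Marco alone was higher, where 0.555% of all genes were, and no member was lower, where 0.853% were. Marco entered these counts only through its signal on the diosgenin array. Without it 22 of 31 members were higher, 1 of 31 was past 1.5-fold, a share near that of all genes, and 0 of 31 were past 2-fold. With a limit of 1.2-fold, added after the data were seen and close to the spread between probe sets, 8 of 32 members were higher, where 14.5% of all genes were. The lower members at that limit were Cd163 and Mrc1, or 6.25%, against 15.3% of all genes. The members past 1.2-fold upward were Marco, Tyrobp, Mpeg1, Coro1a, Fcer1g, Ctsc, Lyz2 and Clec4f. Mpeg1, just under 1.5-fold, and Tyrobp, just over it, differed by only 0.04 on the log2 scale.

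**Figure D2:**
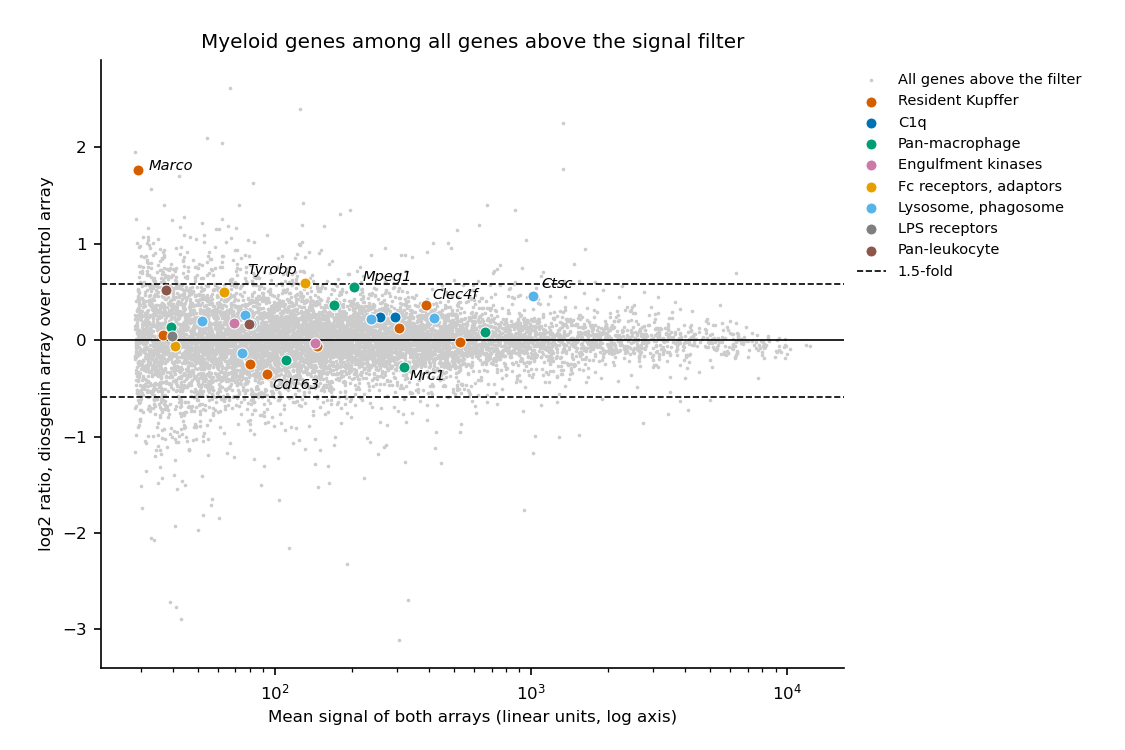
log2 ratio, diosgenin over control, against the mean signal (linear units, log axis) for the 9732 genes above the filter (grey) and the 32 members (coloured by role), with 1.5-fold marked by dashed lines. Marco stands at 1.76 near the dim edge, Tyrobp sits on the upper 1.5-fold line, and the other members lie between the lines.

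The resident Kupffer cell genes went both ways. There were 4 higher and 4 lower genes, and the median log2 ratio was 0.01. Marco, a scavenger receptor for bacteria, had a signal of 45.1 on the diosgenin array and 13.3 on the control array. This was 3.39-fold higher, at the dim end of the scale, where the central 95% of genes reached from −0.95 to 0.83 on the log2 scale. A dimmer second Marco probe set read 29.2 on the diosgenin array and 19.3 on the control array, 1.51-fold higher. Both Marco probe sets thus pointed upward but differed in size, and with the floor raised to the 60th percentile the log2 ratio of the first was 0.67. Without Marco the median of the other 7 resident genes was −0.02.

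Clec4f encodes a lectin that, in mice, marks Kupffer cells. Its signal was 439 on the diosgenin array and 341.0 on the control array, 1.29-fold higher, at percentile 96.2 when genes are split into 4 bins of equal size by signal and ranked within the bin. Vsig4, the complement receptor CRIg, had 318 on the diosgenin array and 292 on the control array, 1.09-fold higher. Timd4, the phosphatidylserine receptor TIM-4, had 37.1 on the diosgenin array and 35.7 on the control array, 1.04-fold higher. Vsig4 and Timd4 were thus well within the spread between probe sets.

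The lower resident genes were led by Cd163, the scavenger receptor for complexes of haemoglobin and haptoglobin. Its signal was 82.0 on the diosgenin array and 104.6 on the control array, 1.28-fold lower. Folr2, the folate receptor of macrophages, had 73.0 on the diosgenin array and 86.6 on the control array, 1.19-fold lower. Adgre1 encodes F4/80, the usual surface marker of mouse macrophages, and had 143 on the diosgenin array and 149 on the control array. Cd5l, a secreted macrophage protein that inhibits apoptosis, had 521 on the diosgenin array and 530.3 on the control array. Adgre1 and Cd5l were 1.04-fold and 1.02-fold lower, so both were nearly level between the arrays.

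The C1q genes had nearly equal ratios. C1q, the recognition molecule of the classical complement pathway, is built from the A, B and C chains, and macrophages are its main source. C1qa had 318 on the diosgenin array and 268 on the control array, 1.18-fold higher. C1qb had 255 on the diosgenin array and 219.7 on the control array, 1.16-fold higher, and its other 2 probe sets were 1.25-fold and 1.13-fold higher. C1qc had 278 on the diosgenin array and 235 on the control array, 1.18-fold higher. The 3 chains thus had log2 ratios of 0.22 to 0.24, each smaller than the standard deviation between probe sets, with all 5 of their probe sets higher on the diosgenin array.

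The pan-macrophage genes included 4 that were higher and 2 that were lower, with a median of 0.11. Mpeg1 encodes perforin-2, a pore-forming protein of phagosomes. Its signal was 242 on the diosgenin array and 166 on the control array, 1.46-fold higher, at percentile 98.8 of its signal bin. Lyz2, the lysozyme of myeloid cells, had 192 on the diosgenin array and 149 on the control array, 1.29-fold higher. Aif1, the actin-binding protein IBA1, had 41.2 on the diosgenin array and 37.5 on the control array, 1.099-fold higher. Lyz2 and Mpeg1 were thus past the spread between probe sets, and Aif1 was not.

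Csf1r encodes the receptor for the growth factors CSF1 and IL-34. Its brightest probe set read 683 on the diosgenin array and 643 on the control array, 1.062-fold higher. The other 2 probe sets of Csf1r disagreed, with log2 ratios of 0.36 and −0.27, so its direction depended on the probe set, and it counts as higher here by the brightest one. Spi1, below the filter, had 27.4 on the diosgenin array and 25.1 on the control array, 1.09-fold higher.

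The lower pan-macrophage genes were Mrc1 and Msr1. Mrc1, the mannose receptor, which sinusoidal endothelial cells also express, had 289 on the diosgenin array and 349.6 on the control array, 1.21-fold lower. Msr1, the scavenger receptor SR-A, had 102 on the diosgenin array and 118 on the control array, 1.16-fold lower. All 4 Msr1 probe sets were lower on the diosgenin array, at log2 ratios from −0.21 to −0.02. Cd163, Mrc1, Folr2 and Msr1 had the lowest ratios among the members above the filter. Markers of the liver endothelium, which shares Mrc1, were lower in 10 of 10 cases, with summed signals of 2009 on the diosgenin array and 2758 on the control array and no marker under the filter. Their part in the Mrc1 difference was not tested.

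**Figure D3:**
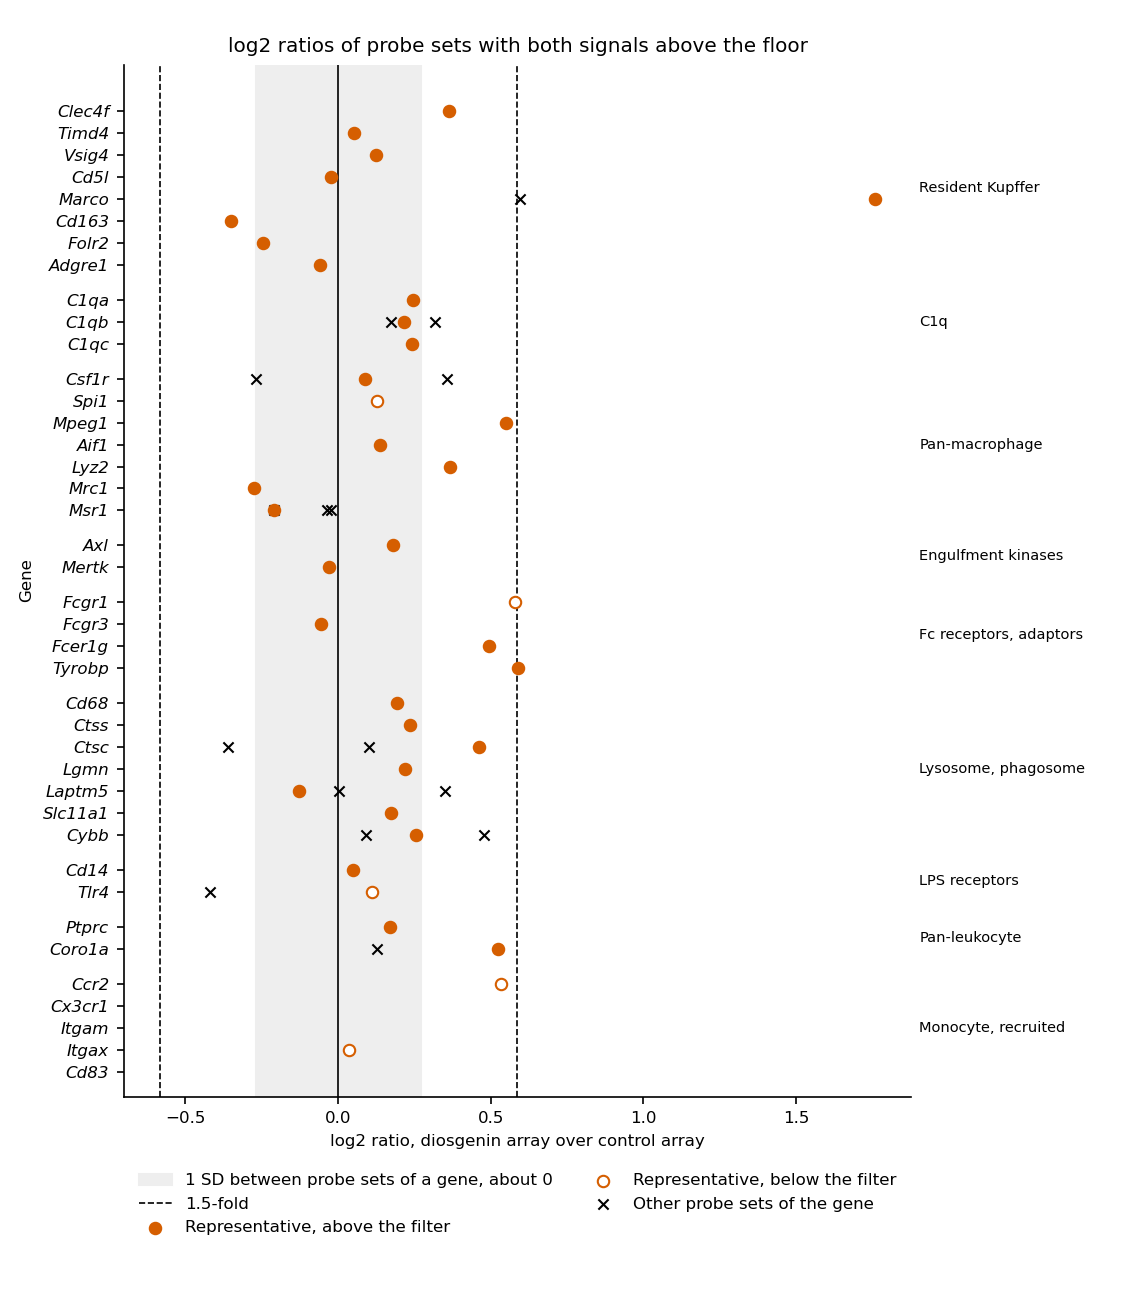
log2 ratio, diosgenin over control, for probe sets of the 40 genes with both signals above the floor, by role. Filled circles are representative probe sets above the filter, open circles those below it and crosses other probe sets of the gene, and the grey band is 0.27 to either side of 0, the standard deviation between probe sets of a gene. Most filled circles lie right of 0, and the crosses of Csf1r, Ctsc and Laptm5 fall on both sides of 0 or apart from the circle. Cx3cr1, Itgam and Cd83 have no point because at least 1 signal was under the floor.

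Of the engulfment receptor kinases, which recognise dying cells through the bridging proteins GAS6 and protein S, neither moved past the spread. Axl had 73.4 on the diosgenin array and 64.9 on the control array, 1.13-fold higher. Mertk had 141 on the diosgenin array and 144 on the control array, 1.02-fold lower.

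The signalling adaptors of activating receptors were among the highest members. Tyrobp encodes DAP12, the adaptor of TREM and related receptors, and had 157 on the diosgenin array and 104.4 on the control array. This was 1.504-fold higher. Fcer1g encodes the common gamma chain that Fc receptors signal through. Its signal was 73.9 on the diosgenin array and 52.4 on the control array, 1.41-fold higher, at percentile 90.6 of its signal bin.

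The Fc receptors themselves differed. Fcgr3, a low-affinity receptor for IgG, had 39.8 on the diosgenin array and 41.4 on the control array, 1.04-fold lower. Fcgr1, the high-affinity receptor, was below the filter at 24.96 on the diosgenin array and 16.69 on the control array, 1.496-fold higher. With the floor at the 60th percentile, both Fcgr1 signals lay at the floor. Each of Tyrobp, Fcer1g and Fcgr3 was read by a single probe set, so none has a repeat within the array.

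The lysosome and phagosome genes were higher in 6 of 7 cases, where 49.0% of all genes were, and had a median of 0.22. Ctsc, the cathepsin that activates serine proteases of immune granules, had 1178 on the diosgenin array and 856 on the control array. This was 1.38-fold higher, but the other Ctsc probe sets were dimmer and had log2 ratios of 0.10 and, below the filter, −0.36. Ctss, the cathepsin that trims the invariant chain of class II molecules, had 452 on the diosgenin array and 384 on the control array, 1.18-fold higher. Lgmn, the lysosomal protease legumain, had 256 on the diosgenin array and 219 on the control array, 1.17-fold higher.

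Cybb encodes the catalytic subunit of the phagocyte NADPH oxidase. Its brightest probe set read 82.7 on the diosgenin array and 69.3 on the control array, 1.19-fold higher, and the other 2 were 1.07-fold and 1.39-fold higher. The last of these, with 34.2 on the diosgenin array and 24.6 on the control array, passed the filter only through the diosgenin array. Cd68, a lysosomal glycoprotein of macrophages, had 55.3 on the diosgenin array and 48.4 on the control array, 1.14-fold higher. Slc11a1, a metal transporter of the phagosome membrane, had 85.1 on the diosgenin array and 75.5 on the control array, 1.13-fold higher. Apart from Ctsc, these higher genes lay between 1.13-fold and 1.19-fold by their brightest probe sets.

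Laptm5, a lysosomal membrane protein of leukocytes, had 71.2 on the diosgenin array and 77.9 on the control array, 1.09-fold lower. Its other 2 probe sets above the filter had log2 ratios of 0.0019 and 0.35, so its direction depended on the probe set. Of the 6 members with several probe sets above the filter, C1qb, Ctsc, Cybb and Msr1 kept 1 direction among them and Csf1r and Laptm5 did not. For Cybb this includes the probe set that passed the filter only through the diosgenin array.

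The receptors for lipopolysaccharide were close to level. Cd14 had 40.1 on the diosgenin array and 38.8 on the control array, 1.03-fold higher. Tlr4, below the filter, had 25.89 on the diosgenin array and 23.98 on the control array, and a second probe set with a log2 ratio of −0.42 pointed the other way.

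The 2 genes shared by all leukocytes were higher. Coro1a, an actin regulator of blood cells, had 44.4 on the diosgenin array and 30.9 on the control array, 1.44-fold higher at dim signals. Its next probe set was below the filter and 1.09-fold higher. Ptprc, the leukocyte antigen CD45, had 83.4 on the diosgenin array and 74.1 on the control array, 1.13-fold higher.

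Resident genes could be set against monocyte genes only as single values, because 0 of 5 monocyte genes passed the filter. Ccr2, the receptor that draws monocytes out of the marrow, had 16.5 on the diosgenin array and 11.4 on the control array. Another of its probe sets, with 10.3 on the diosgenin array and 13.0 on the control array, went the other way. Cx3cr1, the fractalkine receptor, had 15.9 on the diosgenin array and 6.99, under the floor, on the control array, at least 1.48-fold higher against the floor. Cd83, a surface protein of mature dendritic cells, had 17.9 on the diosgenin array and 9.60, under the floor, on the control array, at least 1.67-fold higher.

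The integrins of recruited cells were also dim. Itgam, which encodes CD11b, was under the floor on both arrays, at 7.34 on the diosgenin array and 10.5 on the control array. Itgax, which encodes CD11c, had 20.1 on the diosgenin array and 19.6 on the control array. The median of the 5 genes without the filter was 0.53, against 0.01 for the 8 resident genes and 0.00 for all genes without the filter. With the floor at the 60th percentile, above every signal of these genes, that median was 0.00, and with all probe sets of a gene summarised by their median it was 0.035. A difference between resident and monocyte genes was therefore not measurable at these signals.

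Further genes that the same cells express, outside the list of 40, were also read. Whole-liver signals do not show which cells these transcripts came from. Of the Kupffer cell genes among them 10 passed the filter, 8 on the higher and 2 on the lower side, where 49.0% of all genes were higher. Their median log2 ratio was 0.19, and 1 of them was past 1.5-fold upward, where 2.84% of all genes were. Slc40a1, the iron exporter ferroportin, which hepatocytes also express, had 2132 on the diosgenin array and 1403 on the control array, 1.52-fold higher, with a second probe set at a log2 ratio of 0.68. Hmox1, the heme-degrading oxygenase, had 139 on the diosgenin array and 93.5 on the control array, 1.49-fold higher. Clec1b, a lectin that binds podoplanin, went the other way at 64.3 on the diosgenin array and 91.7 on the control array, 1.43-fold lower.

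Myeloid transcription factors were higher in 5 of 6 cases above the filter, where 49.0% of all genes were, with a median of 0.21. Cebpa, counted as higher, was nearly level at 2060 on the diosgenin array and 2031 on the control array. The lower gene was Maf, whose other 3 probe sets above the filter had log2 ratios from −0.27 to 0.56. Cebpb, which hepatocytes also express, had 1030.0 on the diosgenin array and 749 on the control array, 1.38-fold higher. Irf8, a factor of mononuclear phagocytes, had 53.0 on the diosgenin array and 41.1 on the control array, 1.29-fold higher. Zeb2 had 49.2 on the diosgenin array and 40.7 on the control array, 1.21-fold higher.

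Genes of phagocyte signalling and the oxidase were higher in 6 of 7 cases, where 49.0% of all genes were, with a median of 0.30. Cyba, the membrane partner of the Cybb product, had 71.7 on the diosgenin array and 40.01 on the control array, 1.79-fold higher. Rac2, the blood-cell GTPase of the oxidase, had 41.1 on the diosgenin array and 26.4 on the control array, 1.56-fold higher. Inpp5d, the lipid phosphatase SHIP-1, had 21.4 on the diosgenin array and 47.1 on the control array, 2.20-fold lower. All 3 were dim. Rac2 and Ncf4, also of this list and counted as higher, passed the filter only through the diosgenin array. Inpp5d passed it only through the control array.

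Scavenger and complement receptors went both ways, with 3 of 9 higher, 6 lower and a median of −0.098. That median was 0.11 without shared and alternative probe sets, over 6 genes, and −0.30 when only genes above the 75th percentile of mean signal were kept. Clec7a, the beta-glucan receptor dectin-1, had 55.1 on the diosgenin array and 35.3 on the control array, 1.56-fold higher. Fcgr2b, the inhibitory Fc receptor that sinusoidal endothelium also expresses, had 380 on the diosgenin array and 571 on the control array, 1.503-fold lower. Its other 3 probe sets above the filter were lower by less, at log2 ratios from −0.49 to −0.17. Scarb1, the lipoprotein receptor SR-BI of hepatocytes and other cells, had 773 on the diosgenin array and 1034 on the control array, 1.34-fold lower. Fcgr2b and Stab1 of this list are also among the endothelial markers. Fcgr4, counted as higher at 34.2 on the diosgenin array and 28.1 on the control array, passed the filter only through the diosgenin array.

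The ligands of the myeloid receptors were mostly dim, with 3 of 8 above the filter. Csf1 had 50.5 on the diosgenin array and 44.2 on the control array, 1.14-fold higher, but its other probe set had a log2 ratio of −0.21. Pros1, protein S, had 255 on the diosgenin array and 205 on the control array, 1.24-fold higher. Gas6 had 172 on the diosgenin array and 218 on the control array, 1.27-fold lower. The genes of the 2 bridging proteins, Pros1 and Gas6, thus had opposite directions.

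Macrophage cytokines were mostly dim, and 6 of 11 genes of that list were under the floor on both arrays. Of the 4 above the filter 1 was higher and 3 lower, where 49.0% of all genes were higher. Their median of −0.26 became 0.23, over 2 genes, without shared and alternative probe sets. Il1b had 30.4 on the diosgenin array and 41.3 on the control array, 1.36-fold lower. Il1rn, the interleukin-1 receptor antagonist, had 27.3 on the diosgenin array and 51.3 on the control array, 1.88-fold lower. It passed the filter only through the control array. Tgfb1 had 83.4 on the diosgenin array and 57.0 on the control array, 1.46-fold higher. Tnf, Il6, Il10, Nos2, Ccl3 and Cxcl2 were under the floor on both.

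The list of lipid-associated macrophage genes had a median of 0.01, with 3 of 5 genes higher, and a median of 0.31 over 4 genes without shared and alternative probe sets. Lgals3, galectin-3, had 55.8 on the diosgenin array and 31.6 on the control array, 1.77-fold higher. Lpl, lipoprotein lipase, had 378 on the diosgenin array and 235 on the control array, 1.61-fold higher, and Fabp5, a fatty acid binding protein, was 1.23-fold lower. The defining receptor Trem2 and the glycoprotein Gpnmb were below the filter. Further monocyte genes had 2 higher and 2 lower of 4 above the filter, with Nr4a1 and Plac8 1.23-fold and 1.22-fold higher and Hp, which hepatocytes make in bulk, 1.09-fold lower.

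Other cell types of the liver were read from their own markers. Hepatocyte markers were level as a set, with 4 of 8 higher and a median of −0.02. Apob was 1.22-fold lower, and another of its probe sets had a log2 ratio of −0.94. The other 3 Hnf4a probe sets above the filter were higher, at 0.14 to 0.34. All 10 endothelial markers were lower, with a median of −0.39, led by Clec4g at 464 on the diosgenin array and 745 on the control array, 1.61-fold lower. Lyve1 was 1.42-fold and Stab2 1.204-fold lower. All 8 stellate cell markers were higher, with a median of 0.27 and summed signals of 3846 on the diosgenin array and 3200.0 on the control array. With all probe sets of a gene summarised by their median, the stellate median was 0.09, and another Rgs5 probe set had a log2 ratio of −0.74. Hand2 had 54.0 on the diosgenin array and 27.8 on the control array, 1.95-fold higher, and Dcn was 1.30-fold higher. Hand2 passed the filter only through the diosgenin array. Of the biliary markers only Sox9 passed the filter, and only through the control array. Its signal was 26.1 on the diosgenin array and 42.0 on the control array, 1.61-fold lower. The lower endothelial and higher stellate markers stand beside the myeloid values as measured, and whether the makeup of the 2 pools contributed to either was not tested.

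**Figure D4:**
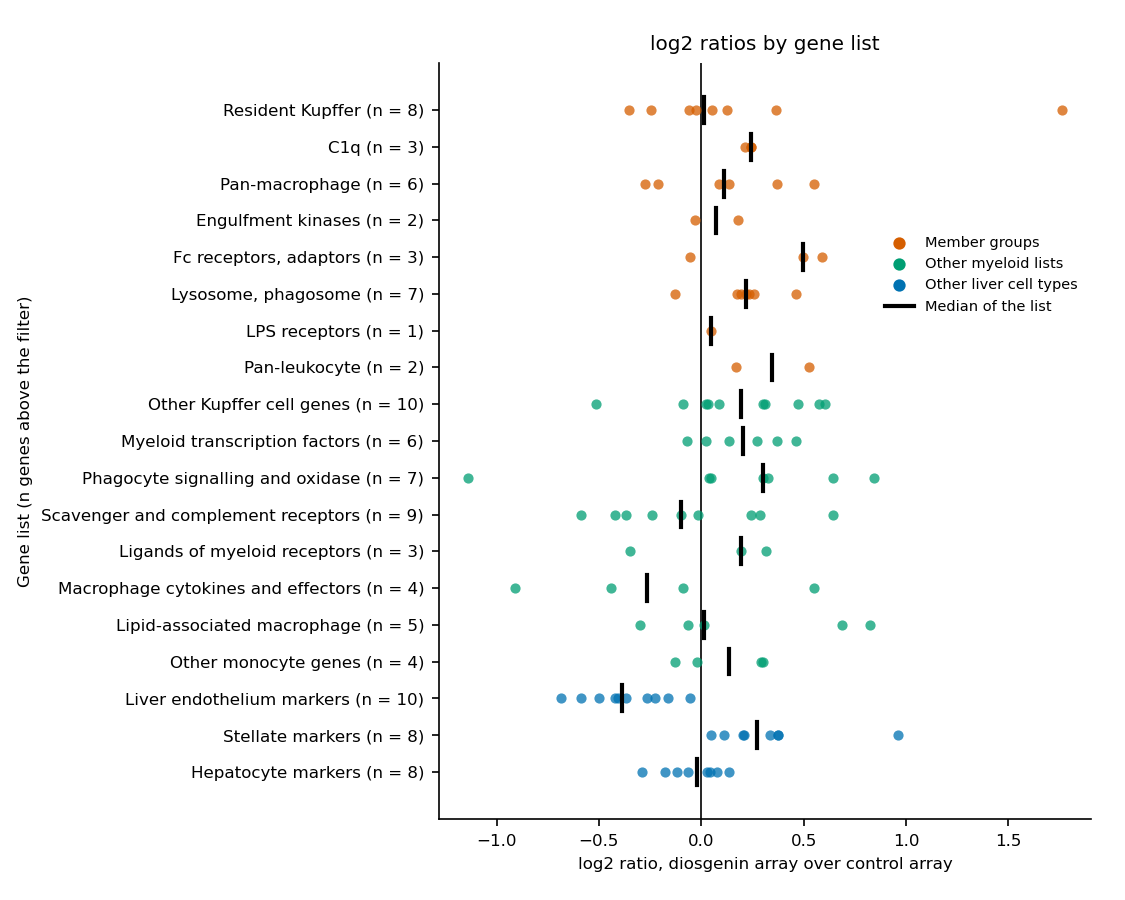
log2 ratio, diosgenin over control, for each gene above the filter in the role groups of the 40 genes (orange), other myeloid lists (green) and markers of other liver cell types (blue), with black bars at the median of each list. The medians of C1q, the Fc receptor and adaptor group and the lysosome group lie between 0.22 and 0.49, the resident group lies at 0.01 with Marco far to the right, and the endothelial markers all lie left of 0.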

How the data were processed

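Liver RNA of 3 mice per diet was pooled, and 5 µg was labelled with biotin for 1 array per diet, per the labels' protocols. The deposited values are linear array intensities, 1 for each of 45101 probe sets, and GCOS is named in the submitters' processing notes. The sources used here do not give the summary algorithm or the scaling target. The trimmed mean, leaving out 2% at either end, was 96.9 on both arrays, with medians of 17.0 on the diosgenin array and 17.1 on the control array.

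Names came from the platform annotation. Of the probe sets 34958 had 1 symbol, 932 several and 9211 none, and only the first were used. All 40 symbols matched RefSeq (GRCm38.p6). From these intensities a floor, a signal filter and log2 ratios were computed as described above, with pandas 2.3.3 and numpy 2.4.6, and the steps were tested on simulated data. The number of arrays limits the precision, and with 1 array per diet no test was made. Alternatives changed the floor, the filter, the choice of probe set and the normalization. Every member is described. Of each further list, up to 3 genes with the largest ratio in size among those above the filter are named. Defining markers and genes that limit the reading of a list are named too. The members and lists were chosen with earlier results of these data known.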

Additional observations from a re-analysis of the deposited data

How the results depend on the processing

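Each group median and count was recomputed under 8 alternatives. The median of the members stayed between 0.13 and 0.22 on the log2 scale, and the median of the resident genes between −0.02 and 0.09. Medians that moved by more than 0.27 were those of the 5 monocyte genes without the filter, at 0.00 with the floor at the 60th percentile and 0.035 with the median of the probe sets, of the biliary markers, at −0.16 with that median, and of the cytokine and lipid-associated lists, at 0.23 and 0.31 without shared and alternative probe sets, where fewer genes were left. Other medians stayed within 0.27 of the printed value. Among these, the list of further Kupffer cell genes ranged from 0.09 to 0.31, myeloid factors from 0.08 to 0.22, ligands from −0.02 to 0.25, scavenger receptors from −0.30 to 0.11 and stellate markers from 0.09 to 0.35. With the filter at the 75th percentile, 18 members were left, of which 12 were higher, 5 by at least 1.2-fold and 1 by at least 1.5-fold. The shares of all genes that were higher at all or past 1.2-fold were not computed with that filter, so the first 2 counts have no comparison. Of the 6814 genes that filter left, 105 were at least 1.5-fold higher and 136 lower, and 19 and 32 at 2-fold. Without a filter these counts were 752, 865, 180 and 218 of 18194 genes. With the median of the probe sets 51 genes were at least 2-fold lower. The median of its probe sets was 1.18 for Marco, 0.10 for Ctsc and 0.13 for Coro1a.

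Members with mean signals under 28.4, among them all monocyte genes, were read at dim signals. No detection calls were available, so the floor and the filter, both percentiles of the signals, stand in for them. The floor at the 60th percentile put the log2 ratios of Fcgr1, Ccr2, Cx3cr1 and Cd83 at 0.00. No paired analysis was possible because each diet had 1 array, and there was no replicate to leave out.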

Other observations

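Markers of other blood cells were dim on both arrays, apart from the erythroid marker Alas2. Of 9 neutrophil markers 0 passed the signal filter, and their summed signals were 88.1 on the diosgenin array and 126.8 on the control array, with no single signal above 20.02. S100a8 had 15.7 on the diosgenin array and 19.4 on the control array, and S100a9 had 16.4 on the diosgenin array and 20.02 on the control array. Of 11 T and NK cell markers 1 passed the filter, Cd8a, at 31.1 on the diosgenin array and 31.2 on the control array. Of 5 B cell markers 0 passed, and Cd79a, chosen after its value was seen, had 27.7 on the diosgenin array and 9.86, under the floor, on the control array. Of 6 dendritic cell markers Zbtb46 alone passed the filter, 1.16-fold lower, and another of its probe sets had a log2 ratio of −0.96. Among erythroid markers Alas2 alone passed, at 1123 on the diosgenin array and 1309 on the control array, 1.17-fold lower.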
